A study of Homo sapiens with 4 samples.

Results

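KYSE-520 was compared with KYSE-450, 2 established human cell lines cultured from oesophageal squamous cell carcinoma, a tumour of the squamous lining of the gullet. The whole series has 4 such lines with 1 microRNA array each, the other two being KYSE-890 and KYSE-960, and none was treated. All lines were grown in the same medium with 5% serum at 37 °C, and 500 ng of total RNA was labelled with the dye Hy5 and hybridized for 16 h at 32 °C. Of the 856 features on the chip, 156 were kept, because their deposited intensity lay above the background threshold on the KYSE-520 array or the KYSE-450 array. That threshold was the array's median plus 3 SDs, with the SD computed over the features dimmer than that median, which put it at 146.2 intensity units in KYSE-520 and 134.5 in KYSE-450. No line has a replicate array, so every difference below is a description of these 2 arrays and carries no p-value.

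MicroRNAs are short RNAs cut from hairpin precursors that guide the silencing complex to messenger RNAs, mainly through a short stretch near their 5′ end called the seed. MicroRNAs that share a seed form a family with overlapping targets, and microRNAs cut from 1 long precursor form a cluster whose members are often made together. In squamous epithelia and their tumours, microRNA profiles are commonly used to tell cell lineages and states of differentiation apart.

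The deposited table gives each feature only as a mature-sequence accession of miRBase, the registry of microRNAs, and pairs none of them with a name. None of the 856 accessions was found in the reference tables used here (0 matches). The features are therefore given without name, family, arm, sequence or genome position, and at most 2 accessions are printed in each direction of difference. For the same reason the squamous label of the lines could not be set against marker microRNAs.

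The arrays of KYSE-520 and KYSE-450 detected largely the same features. Of the 156 features, 112 were above background on both arrays, 38 in KYSE-520 alone and 6 in KYSE-450 alone, while 700 were above it on neither. Nearest the threshold on the KYSE-520 array, the dimmest features kept measured 147, 147.5 and 147.5, and the brightest left out measured 146, 143 and 143. On the KYSE-450 array the dimmest kept measured 136, 140.5 and 142, and the brightest left out 134, 133.5 and 132. The 156 features supplied 83.6% of the summed intensity in KYSE-520 and 81.8% in KYSE-450. The 10 brightest features of each array supplied 48.9% in KYSE-520 and 49.3% in KYSE-450. The brightest value of the pair, 57263.5, lay below the ceiling of a 16-bit scanner.

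The order of brightness was close between the lines. Spearman's rho of the deposited intensities was 0.87 across the 112 features above background on both arrays. Measured the same way, rho was 0.78 between KYSE-890 and KYSE-960 over 78 features. It was 0.47 between KYSE-520 and KYSE-890 over 87 features, 0.59 between KYSE-520 and KYSE-960 over 86, 0.49 between KYSE-450 and KYSE-890 over 82, and 0.64 between KYSE-450 and KYSE-960 over 85. Pearson's r of the log2 deposited intensities over the same features did not separate the closest pairs. It was 0.908 between KYSE-520 and KYSE-450, 0.910 between KYSE-890 and KYSE-960, and 0.574 to 0.720 between the other pairs. These are correlations across features of pairs of arrays, and features are not independent replicates. The features at ranks 1 to 4 were identical in KYSE-520 and KYSE-450, and 44 of the 50 brightest were common to both.

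**Figure D1:**
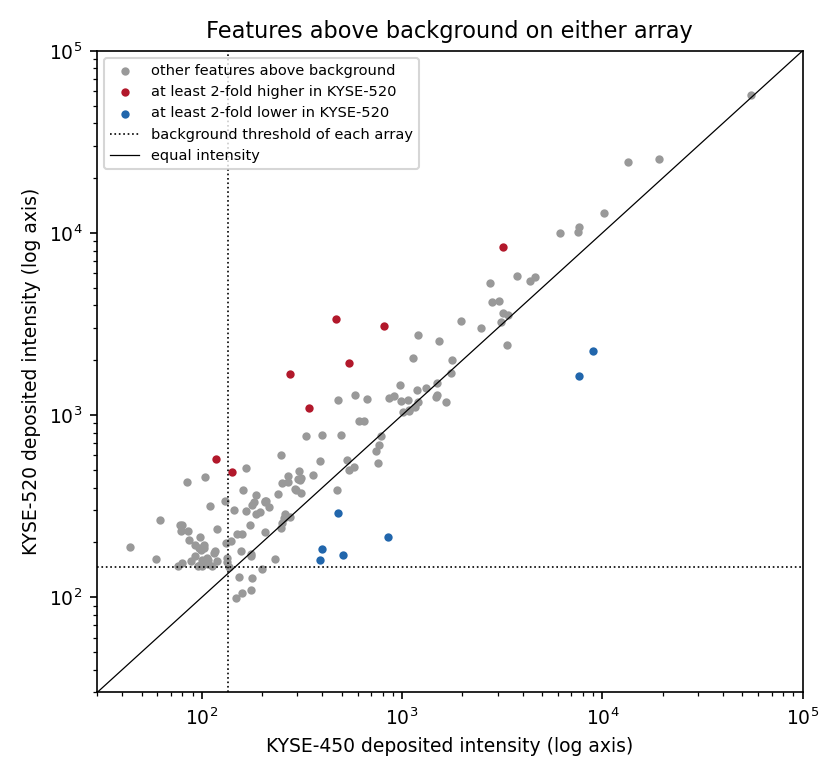
Deposited intensity of the 156 features above background on either array, KYSE-520 on the vertical and KYSE-450 on the horizontal log axis, 1 point a feature. Red and blue points are the 8 features at least 2-fold higher and the 7 at least 2-fold lower in KYSE-520 after quantile normalization, dotted lines mark the background thresholds (146.2 in KYSE-520, 134.5 in KYSE-450), and most grey points lie just above the line of equal intensity.

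KYSE-520 was the brighter array for most features, so the choice of scaling sets the balance between higher and lower. In the deposited values 84 of the 112 shared features (75.0%) were brighter in KYSE-520 and 28 were brighter in KYSE-450, with a median difference of 0.45 log2 (1.36-fold), KYSE-520 over KYSE-450. Over all 856 features the deposited median difference was 0.18 log2. Quantile normalization over the 4 arrays, which in effect compares ranks, brought the median of the shared features to 0 log2. After it 48 were higher in KYSE-520, 53 were lower and 11 were equal. The sign of the difference turned between the scalings for 25 of the 112 features. Whether KYSE-520 cells held more microRNA per 500 ng of total RNA or the array was labelled or scanned more brightly cannot be told apart, and both scalings are given throughout. In RNA pooled from many cells, fewer expressing cells and less RNA per cell cannot be told apart either.

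The median brightness gap between the arrays was smaller among the brightest shared features, within a wide spread. The shared features were split by their mean log2 intensity into 3 groups of near-equal size. The dim group (38 features, median intensity 290 in KYSE-520 and 206.5 in KYSE-450) had a median deposited difference of 0.53 log2. The middle group (37 features, median 772 in KYSE-520 and 544.5 in KYSE-450) had 0.52 log2, and the bright group (37 features, median 3261 in KYSE-520 and 2799.5 in KYSE-450) had 0.33 log2. The SD of the deposited differences was 0.68 log2 in the dim, 0.80 in the middle and 0.87 in the bright group, and the gap between the medians was not tested. After quantile normalization the medians of these groups lay between -0.04 and 0 log2.

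**Figure D2:**
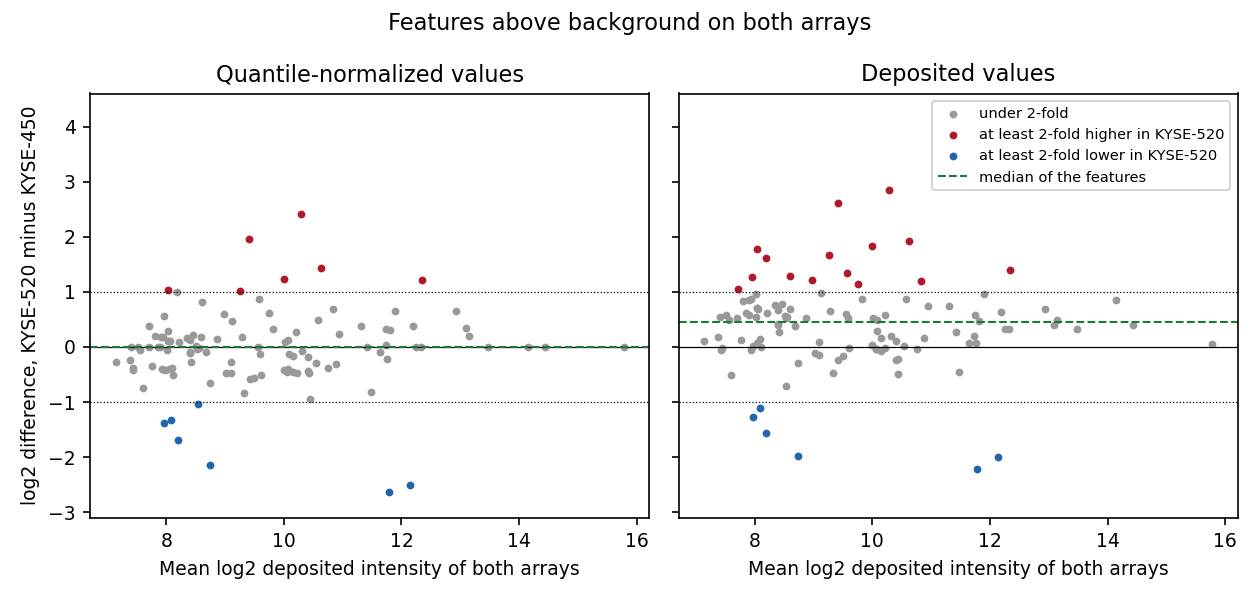
Difference in log2 intensity, KYSE-520 minus KYSE-450, of the 112 features above background on both arrays, against their mean log2 deposited intensity, after quantile normalization (left) and in the deposited values (right). Dotted lines mark 2-fold and the dashed green line the median, which lies at 0 log2 on the left and at 0.45 on the right, so that more features pass 2-fold upwards in the deposited values.

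Few features differed by 2-fold or more. After quantile normalization 8 of the 156 features (5.13%) were at least 2-fold higher in KYSE-520 and 7 (4.49%) were at least 2-fold lower. As shares of all 856 features these calls were 0.935% and 0.818%, and in the deposited values, given next, 2.34% and 0.701%. For a feature above background on 1 array only, the fold was taken as a bound, against the dimmest feature above background on the other array. In the deposited values 20 features (12.8%) were higher and 6 (3.85%) were lower. Higher calls thus made up 53.3% of all calls after normalization and 76.9% before. All 8 higher calls and 6 of the 7 lower calls were made under both scalings. A further 12 features passed 2-fold upwards in the deposited values alone. Their folds, bounds included, ran from 2.09 to 3.35 in the deposited values and from 1.30 to under 2 after normalization. Of these 12, 8 were above background on both arrays, and for the others the folds, the 3.35 among them, are lower bounds. At their own values in KYSE-450, those others differed by 0.66 to 1.58 log2 after normalization, so not all of them lay under 2-fold.

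The scatter of the dim features gives a rough measure of how far 2 arrays differ without a detectable microRNA. Over the 700 features above background on neither array, the middle 95% of KYSE-520 over KYSE-450 ratios ran from 0.59 to 1.69 after normalization and from 0.62 to 1.90 before. Of these 700, 3 (0.429%) were at least 2-fold higher and 3 (0.429%) at least 2-fold lower after normalization. In the deposited values 10 (1.43%) were higher and 1 (0.143%) was lower. This scatter is between 2 different lines and not between replicates, and it does not give the error of a bright feature. The 700 were also selected for not exceeding either threshold, which limits how wide their ratios can be.

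The widest difference towards KYSE-520 was that of MIMAT0000086. Its intensity was 3349.5 in KYSE-520 and 465 in KYSE-450. The KYSE-890 and KYSE-960 arrays read 124 and 92.5 for it, neither above background. It was 5.33-fold higher in KYSE-520 than in KYSE-450 after normalization and 7.20-fold higher in the deposited values. It ranked 17th of all features in KYSE-520 and 63rd in KYSE-450.

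MIMAT0000100 followed, with 1682.5 in KYSE-520, against 276 in KYSE-450, while the KYSE-890 array read 68.5 and the KYSE-960 array 67.5. It was 3.89-fold higher in KYSE-520 than in KYSE-450 after normalization and 6.10-fold higher before, and it ranked 30th in KYSE-520 and 79th in KYSE-450. Like MIMAT0000086, it was above background in KYSE-520 and KYSE-450 and not in KYSE-890 or KYSE-960, although MIMAT0000086 came close to the threshold in KYSE-890.

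The other 6 features called higher in KYSE-520 included 5 that were above background on both arrays. These 5 measured between 485 and 8415 in KYSE-520 (median 1935.5) and between 142 and 3197 in KYSE-450 (median 544.5), and their folds ran from 2.02 to 2.71 after normalization and from 2.63 to 3.80 before. The 6th lay under the KYSE-450 threshold, with 571 in KYSE-520 and 117.5 in KYSE-450, and was at least 2.61-fold higher in KYSE-520 after normalization and at least 4.20-fold higher before. Of all 8, 4 were detected in KYSE-890, 1 of them also in KYSE-960, and 4 in neither line. This split depends on values near the KYSE-890 threshold of 128.3, since values of 134 and 134.5 counted as detected and the 124 of MIMAT0000086 did not. For comparison, 57 of the 156 features were detected in neither, and 24 of the 112 above background on both KYSE-520 and KYSE-450.

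MIMAT0000089 showed the widest difference in the opposite direction. Its intensity was 1638 in KYSE-520 and 7634 in KYSE-450. The KYSE-890 array read 381 and the KYSE-960 array 1605. Its fold of KYSE-520 over KYSE-450 was 0.16 after normalization and 0.21 before, so that KYSE-450 was 6.21-fold and 4.66-fold brighter. It ranked 31st in KYSE-520 and 7th in KYSE-450. By rank the other lines divided, with MIMAT0000089 at 33rd in KYSE-890 and 8th in KYSE-960, although its deposited intensities in KYSE-520 and KYSE-960 were close.

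MIMAT0000266 had another pattern across the lines. Its intensity was 2253 in KYSE-520 and 9018.5 in KYSE-450. The other arrays read 12820.5 (KYSE-890) and 12517.5 (KYSE-960), so KYSE-520 was the one line with a low value. Its fold of KYSE-520 over KYSE-450 was 0.18 after normalization and 0.25 before. It ranked 25th in KYSE-520, 5th in KYSE-450 and 2nd in each of the other lines.

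The other 5 features called lower in KYSE-520 were less bright than these. They measured between 160.5 and 290 in KYSE-520 (median 185) and between 389 and 847.5 in KYSE-450 (median 476), and KYSE-450 was brighter by 2.05-fold to 4.41-fold after normalization and by 1.64-fold to 3.94-fold before. All 7 lower calls were above background on both arrays. Of these 7, 4 were detected in both KYSE-890 and KYSE-960, 1 in KYSE-960 alone and 2 in neither. Of the 112 shared features, 75 were detected in both of those lines, 13 in exactly 1 and 24 in neither.

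**Figure D3:**
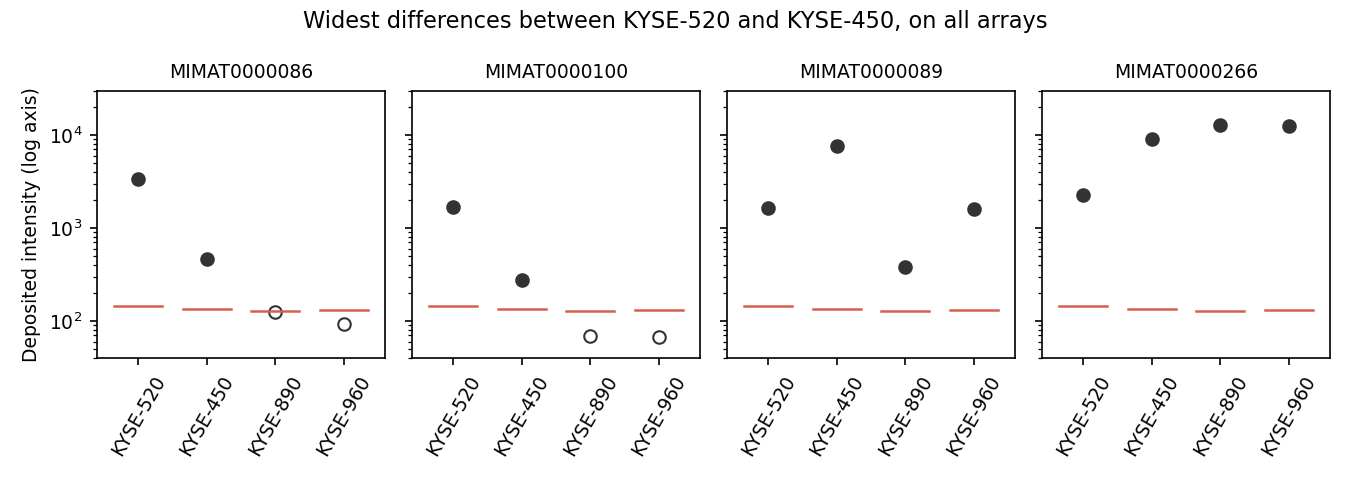
Deposited intensity (log axis) on each of the 4 arrays, KYSE-520 first, of the features with the widest differences between KYSE-520 and KYSE-450, 1 array a point. Red bars mark each array's background threshold and open points values not above it: MIMAT0000086 and MIMAT0000100 are open in KYSE-890 and KYSE-960, MIMAT0000089 peaks in KYSE-450 at 7634, and MIMAT0000266 is lowest in KYSE-520 at 2253.

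Many of the shared features differed little between the lines. Of the 112, 61 (54.5%) lay within 1.5-fold in both the normalized and the deposited values, 29 lay between these and the 2-fold calls, and 22 passed 2-fold under at least 1 scaling. Without replicates this does not show that the 61 were equal. They covered the whole range of brightness, from 147 to 57263.5 in KYSE-520 (median 923.5) and from 136 to 55201 in KYSE-450 (median 785.5). The array medians over all features were 85.5 in KYSE-520 and 78.75 in KYSE-450, and no background was subtracted here. Any background left in the deposited values draws the ratios of dim features towards equality. Near-equality therefore says less for the dimmest of the 61, which were not counted again with background subtracted. Of the 61, 44 were detected in both KYSE-890 and KYSE-960 and 11 in neither of them, against 75 and 24 of the 112 shared features, which are similar shares.

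The brightest of these near-equal features headed both arrays. MIMAT0006766 measured 57263.5 in KYSE-520 and 55201 in KYSE-450, 1.04-fold apart. MIMAT0005946 measured 25503.5 in KYSE-520 and 19269 in KYSE-450, and MIMAT0005954 measured 12813.5 in KYSE-520 and 10171.5 in KYSE-450. These 3 ranked 1st, 2nd and 4th on both arrays, so their normalized values were identical by construction and their deposited folds were 1.04, 1.32 and 1.26. The feature ranked 3rd on both arrays was not near-equal in the deposited values, at 24463 in KYSE-520 and 13477 in KYSE-450 (1.82-fold). Its normalized values were likewise identical by construction.

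Next in brightness, MIMAT0000418 measured 10753.5 in KYSE-520 and 7670.5 in KYSE-450, 1.40-fold higher in KYSE-520 before and 1.15-fold higher after normalization. MIMAT0004973 measured 10050.5 in KYSE-520 and 7581.5 in KYSE-450, with folds of 1.33 and 1.27. Both were also among the 4 brightest features in KYSE-890 and KYSE-960. MIMAT0005911 measured 3554 in KYSE-520 and 3364.5 in KYSE-450 and shows how the scaling turns a small difference, with a fold of 1.06 before and 0.86 after normalization.

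Some near-equal features of the pair were far dimmer in the other lines. MIMAT0005927 measured 4224 in KYSE-520 and 3052.5 in KYSE-450, whereas the KYSE-890 array read 123.5 and the KYSE-960 array 132 for it. It ranked 13th in KYSE-520 and 18th in KYSE-450, and 102nd and 90th on the other arrays. MIMAT0005946, at 1424 on the KYSE-890 array and 2217 on that of KYSE-960, was dimmer there in deposited intensity but still ranked 8th and 7th.

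Most features detected on 1 array only were dim there too. The 38 above background in KYSE-520 alone measured from 147.5 to 571 in KYSE-520 (median 183.75) and from 44 to 134 in KYSE-450 (median 99.75), and 2 of them exceeded 435.25, the median of all features above background in KYSE-520. The bounds of the 38 passed 2-fold for 1 feature after normalization and for 5 before, and the bounds of 33 stayed under 2-fold in both. The 6 above background in KYSE-450 alone measured from 98.5 to 143 in KYSE-520 and from 148 to 200 in KYSE-450, and no bound exceeded 1.62-fold towards KYSE-450 under either scaling. These folds are lower bounds and do not show that the differences were under 2-fold. Taken at their own values in KYSE-450, 8 of the 38 were at least 2-fold higher in KYSE-520 after normalization and 15 before. Over all 856 features at their own values, 18 (2.1%) were so after normalization and 40 (4.67%) before. The 38 passed the threshold in KYSE-520 and not in KYSE-450, so ratios towards KYSE-520 follow in part from that selection.

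miRBase numbers its mature sequences broadly in order of registration, so low accession numbers mark entries registered early. Of the 202 features numbered below 1000, 95 (47.0%) were among the 156, against 61 of the 654 (9.33%) with higher numbers. All 8 features called higher in KYSE-520 after normalization, 4 of the 7 called lower and 34 of the 61 within 1.5-fold had numbers below 1000, beside 60.9% of the 156. The limit of 1000 was set with the values known, and these shares are descriptions. The median deposited difference over shared features was 0.53 log2 for the 73 early ones and 0.27 log2 for the 39 later ones, and after normalization it was 0.01 and -0.07 log2.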

How the data were processed

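The deposited values are intensities on a linear scale, judged from the numbers themselves, since all 3424 are positive multiples of 0.5. How the authors treated background, replicate spots and scaling is not given in the sources used. Per the labels' protocols, RNA carried 1 dye and chips were read on a ProScanArray. Here, limma 3.58.1 (R 4.3.3) was used to quantile-normalize all 4 arrays before log2, without a pseudocount. Above background means above the array median plus 3 dim-side SDs (root mean square distance below the median) in the deposited values. Calls were at least 2-fold, near-equal within 1.5-fold in both scalings. There are no replicates and no tests. The script was tested on simulated arrays. The members, lists and rules were chosen with earlier results of these data known. The naming rule was to give up to 15 features a direction, the 10 brightest and the 10 brightest near-equal ones. Fewer are printed, since no feature has a name, and the 35 planned microRNA lists, cell type markers included, could not be matched and give no result. Precision is limited by the number of arrays.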

Additional observations from a re-analysis of the deposited data

Results flagged for a closer look

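Of the 700 features outside the 156, 12 were detected in neither KYSE-520 nor KYSE-450 but on 1 of the other arrays, which the comparison of KYSE-520 with KYSE-450 does not use. Of these, 7 were above background in KYSE-890 and 5 in KYSE-960. Their highest values were 139.5 in KYSE-520 and 121.5 in KYSE-450, against 204 on the KYSE-890 array and 146.5 on the KYSE-960 array. The medians of the 12 were 132 in KYSE-890 and 124.75 in KYSE-960, close to the thresholds of 128.3 and 129.7 there. Those thresholds were lower than the 146.2 of KYSE-520, so the same value can count as detected on 1 array and not on another.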

How the results depend on the processing

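Of 47 alternative values of the counts, medians and correlations, 38 stayed close to the reported one (counts within 1.5 times, medians within 0.1 log2, correlations within 0.05). Features at least 2-fold higher in KYSE-520 numbered 8 as reported, 20 in the deposited values, 33 with the array median subtracted and no scaling, 15 with a dim feature's own value in place of the bound, 1 at 4-fold and 19 at 1.5-fold. Features at least 2-fold lower numbered 7 as reported, 3 at 4-fold and 13 at 1.5-fold. The median difference of shared features was 0 log2 as reported, 0.45 in the deposited values and 0.49 with the array median subtracted. Of the reported calls, 5 of the 8 higher and 6 of the 7 lower passed 2-fold under every alternative scaling, background correction or added constant. The 4 features named as differing did so in all 24 of their alternatives. They were picked as the widest differences, and the alternatives reprocess the same arrays, so this is no independent check of them. The range of KYSE-520 minus KYSE-450 was 2.33 to 3.08 log2 for MIMAT0000086, 1.89 to 3.02 for MIMAT0000100, -2.74 to -2.22 for MIMAT0000089 and -2.52 to -2.00 for MIMAT0000266. Taking the dim-side SD from a percentile, an alternative chosen after seeing the data, kept 151 features in place of 156. No paired analysis was possible because neither KYSE-520 nor KYSE-450 has a second array, and for the same reason no replicate could be left out.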
